A study of Mus musculus with 8 samples.

Results

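The BCL2 family controls whether mitochondria release cytochrome c, and 10 of its genes were followed here by their rows in the deposited count table, out of 47937 genes: the survival genes Bcl2, Bcl2l1 and Mcl1, the pore-forming effectors Bax and Bak1, and the BH3-only genes Bbc3, Bcl2l11, Bid, Bad and Pmaip1. They were chosen by name, and all 10 had enough counts to be tested among 14633 genes. The libraries were made from mature CD8 single-positive (CD8SP) thymocytes that were TCRβ+ and high for MHC class I, sorted from mice of 6 to 7 weeks, with 4 biological replicates per group. Control mice (Ndrg3ctrl, Ndrg3 +/fl;Lck-cre+) kept 1 wild-type allele of Ndrg3, and knockout mice (Ndrg3TKO, Ndrg3 fl/fl;Lck-cre+) had both alleles floxed. All mice of both groups therefore carried the Cre transgene, which is driven by the Lck promoter active in thymocytes, and at least 1 floxed allele. The comparison addresses which RNAs had already changed in CD8SP thymocytes lacking Ndrg3, before these cells become naive peripheral T cells.

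Survival proteins hold the effectors BAX and BAK in check, and BH3-only proteins release them, either by occupying the groove of the survival proteins or by activating the effectors directly. Once active, BAX and BAK permeabilize the outer mitochondrial membrane, and caspases follow. In the thymus, BCL2 supports mature single-positive cells downstream of interleukin-7, MCL1 is needed at several stages, and BIM, the product of Bcl2l11, kills self-reactive cells during negative selection.

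A feature by which these proteins bind each other is the BH3 region. The coding sequences of 9 members were searched for the BH3 core, Pmaip1 not being among them. The core was a leucine codon, any 3 codons, a glycine, alanine or serine codon and an aspartate codon. The codon after it encoded aspartate, glutamate or glycine. For each gene the longest coding sequence with a match was taken, and it held a single match, within 1 exon. Transcripts without a match were passed over, so the presence of the core in each of the 9 members was not a test. The sequences of 5 of them are shown, because they include the member that rose, its closest match, an effector and both abundant survival genes. Each is 42 bases of coding sequence of the GRCm38 build, written 5′ to 3′ on the strand of the gene, with the 18 bases of the core in capitals.
Bbc3, chr7:16313761-16313802 (+): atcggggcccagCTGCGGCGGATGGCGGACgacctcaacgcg
Bcl2l11, chr2:128147138-128147179 (+): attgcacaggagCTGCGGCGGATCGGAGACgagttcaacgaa
Bax, chr7:45465994-45466035 (-): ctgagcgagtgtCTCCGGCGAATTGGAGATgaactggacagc
Bcl2, chr1:106712572-106712613 (-): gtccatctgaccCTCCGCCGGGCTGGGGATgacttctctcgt
Mcl1, chr3:95659424-95659465 (+): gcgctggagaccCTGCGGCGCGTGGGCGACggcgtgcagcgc
Bbc3 and Bcl2l11 shared 15 of the 18 core bases, the most of the 36 pairs, for which the median was 11. Bbc3 shared 14 with Mcl1, 12 with Bax and 11 with Bcl2.

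Ndrg3, the targeted gene, was lower in all 4 Ndrg3TKO libraries. Its normalized read counts (counts over the library size after TMM scaling, brought to the mean library total of 28941561) were 2293, 2357, 2348 and 2341 in Ndrg3ctrl replicates 1 to 4 and 1459, 1401, 1535 and 1600.2 in Ndrg3TKO replicates 1 to 4. The log2 fold change was -0.64 ± 0.0526 (SE, n = 4 per group; adjusted p = 1.04e-05, quasi-likelihood test of edgeR, Benjamini-Hochberg adjusted over all tested genes). The counts cover the whole gene, and the floxed exon was not analysed separately here. Total counts per library ranged from 21126698 to 32668081. Their means of 26779991 in Ndrg3ctrl and 31103130 in Ndrg3TKO were compared by an exact permutation test, 2-sided, over 4 against 4 libraries and did not pass 0.05 (p = 0.0571, the smallest possible being 0.0286). Counts from 4 Y-linked genes were present in Ndrg3ctrl replicate 2 and in Ndrg3TKO replicates 2 and 3, at 340.5, 379.4 and 416.3 CPM (counts scaled by the total of the library). The other 5 libraries had at most 0.0752 CPM, so the groups were not balanced in this respect.

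Of the 10 members, Bbc3 rose in Ndrg3TKO cells and the other 9 did not pass an adjusted p of 0.05. Across all tested genes 168 passed, or 1.15%, with 116 higher (0.793%) and 52 lower (0.355%). Leaving out 1 library gave 134 without Ndrg3ctrl replicate 2, 158 without Ndrg3TKO replicate 2 and 90 to 110 without any of the other 6. The median log2 fold change of the members was 0.012 and that of all tested genes was -0.003. The plot of normalized counts by library shows each member.

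**Figure D1:**
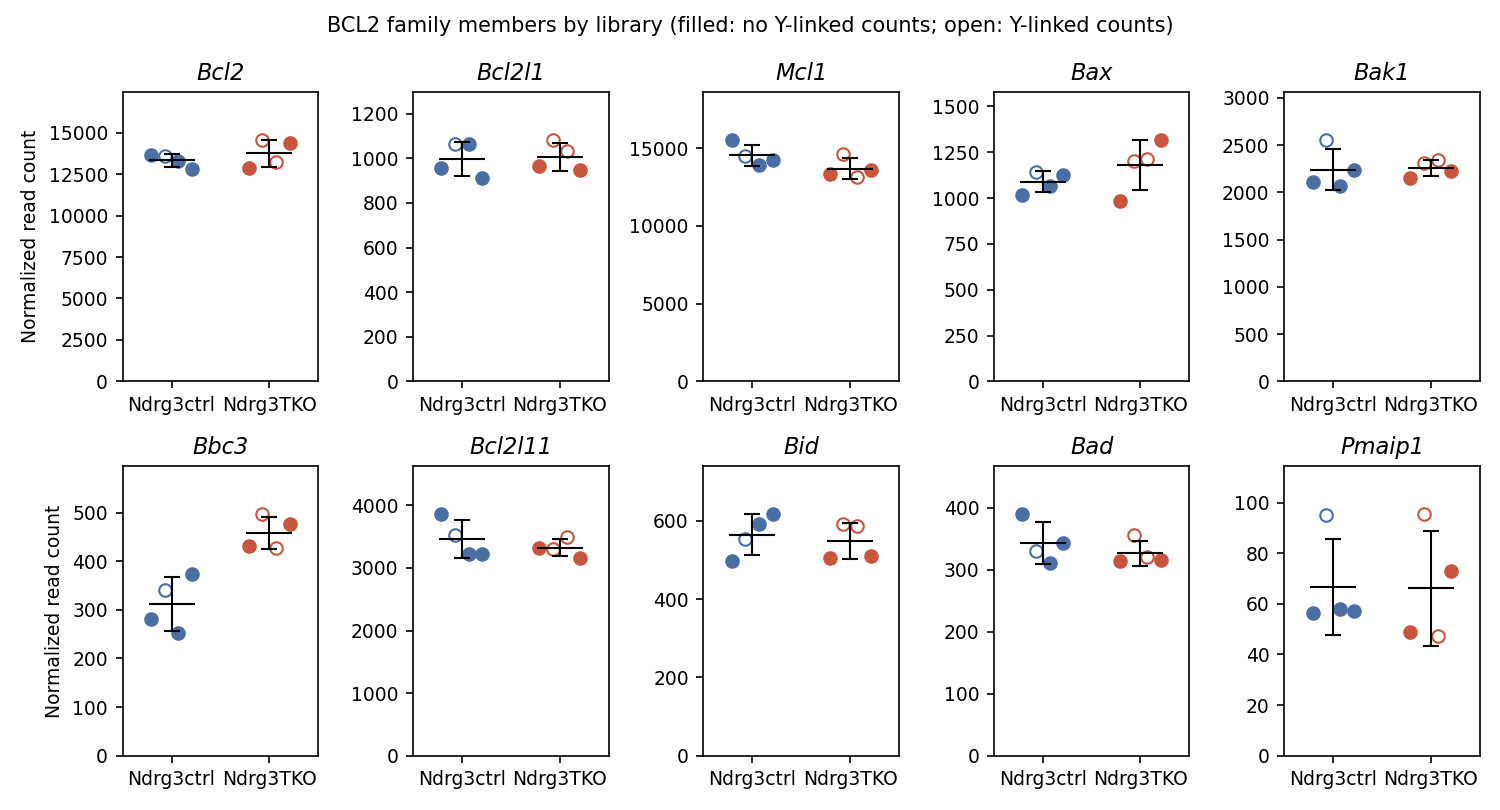
Normalized read counts of the 10 members in each library, on linear axes that start at 0, with the mean and SD of 4 libraries per group as black bars; open points are the 3 libraries with Y-linked counts. The 4 Ndrg3TKO values of Bbc3, from 428 to 496, all lie above the Ndrg3ctrl values of 252 to 373, and the groups overlap for every other member.

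Bbc3 encodes PUMA, a BH3-only protein that binds all of the survival proteins and is a known target of p53 and of FOXO factors. Its normalized counts were 281, 341, 252 and 373 in Ndrg3ctrl and 432, 496, 428 and 476 in Ndrg3TKO. Every Ndrg3TKO library was higher than every Ndrg3ctrl library, a separation found, in either direction, for 7.04% of all tested genes. The mean rose from 312 ± 55.4 to 458 ± 33.2 (SD, n = 4 per group), a 1.47-fold increase (95% interval 1.24 to 1.75). On the log2 scale the change was 0.56 ± 0.117 (SE; adjusted p = 0.0348, quasi-likelihood test of edgeR, Benjamini-Hochberg adjusted), and Bbc3 ranked 123 by p among the tested genes. Raw counts behind these values were 240 to 353 in Ndrg3ctrl and 443 to 546 in Ndrg3TKO.

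The estimate for Bbc3 was positive in every fit made, and its call was not kept in all of them. In the 8 fits that left out 1 library each, the log2 fold change stayed between 0.47 and 0.66, and the adjusted p ran from 0.0138 to 0.115. It passed without Ndrg3ctrl replicate 2 (0.0313) or replicate 4 (0.0138). It did not pass without Ndrg3ctrl replicate 1 (0.115) or replicate 3 (0.0922), nor without Ndrg3TKO replicates 1 (0.0614), 2 (0.0787), 3 (0.0614) or 4 (0.104). With the presence of Y-linked counts as a covariate, Bbc3 rose by 0.54 on the log2 scale (adjusted p = 0.0228, edgeR). Within the 5 libraries without Y-linked counts the log2 fold change was 0.59 (adjusted p = 0.115, edgeR), and within the 3 with them, of which 1 was Ndrg3ctrl, it was 0.44 (adjusted p = 0.431, edgeR, the lone library being assumed to vary like the others). In bulk samples, more cells with the RNA and more RNA per cell cannot be told apart.

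**Figure D2:**
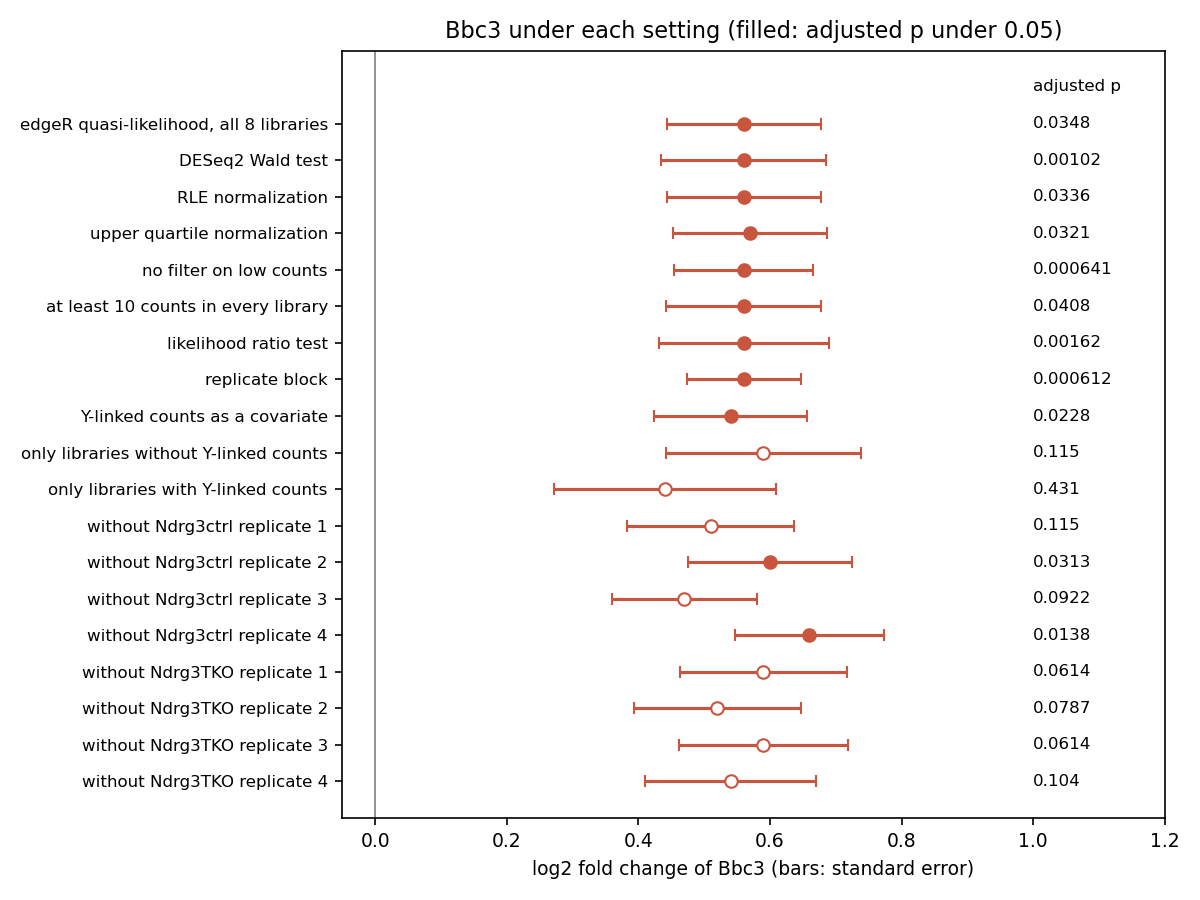
Log2 fold change of Bbc3 (horizontal axis, bars are standard errors) in the fit on all 8 libraries and under 18 other settings, with the adjusted p at the right; filled points passed 0.05. All estimates lie between 0.44 and 0.66, and 8 of the 18 settings, all with fewer libraries, did not pass.

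A total of 3 transcription starts of Bbc3 are annotated by RefSeq, and the 250 bases before each were searched on both strands for the p53 half-site, which has degenerate letters, and for the forkhead core TGTTTAC, to which FOXO factors bind. No half-site was found in the 3 windows, against 7.1% of 32817 windows of the same length before all annotated starts. At that share, the absence of the half-site from 3 short windows says little. The forkhead core occurred in 1 of the 3, and 3.16% of all windows held it. The windows are not all separate, since the one with the core overlaps the next, and the other members were not searched. The window before the start of Phlda3, a p53 pathway gene given below that also rose, held neither the half-site nor the core. The Bbc3 window with the core (RefSeq start, GRCm38.p6) is shown because Bbc3 was the member that rose. It lies within the span of the gene but outside its exons as annotated by GENCODE M21. The core, in capitals, begins at base -167 from the start.
Bbc3, chr7:16310011-16310260 (+): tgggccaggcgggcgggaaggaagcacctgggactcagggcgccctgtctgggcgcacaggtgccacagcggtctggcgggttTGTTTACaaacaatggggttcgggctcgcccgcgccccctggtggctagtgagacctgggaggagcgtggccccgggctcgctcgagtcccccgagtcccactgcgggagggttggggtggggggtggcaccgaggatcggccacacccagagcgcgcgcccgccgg
The match is a description of the letters, and binding was not measured in these libraries.

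Bcl2l11 encodes BIM, which binds the same survival proteins as PUMA. Its normalized counts were 3854, 3531, 3222 and 3219.9 in Ndrg3ctrl and 3325, 3307, 3489 and 3163 in Ndrg3TKO, and the groups overlapped. The log2 fold change was -0.06 (95% interval -0.19 to 0.07; adjusted p = 0.789, edgeR).

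Among the remaining BH3-only genes, Bid encodes the link from death receptors to mitochondria, since caspase-8 cleaves its product. Its normalized counts ranged from 498 to 616 in Ndrg3ctrl and from 506 to 591 in Ndrg3TKO, with a log2 fold change of -0.04 (interval -0.23 to 0.15; adjusted p = 0.902, edgeR). Bad encodes a protein that growth factor signalling holds inactive by phosphorylation. Bad counts were 310.4 to 389 in Ndrg3ctrl and 314 to 356 in Ndrg3TKO, and the log2 fold change was -0.07 (interval -0.28 to 0.13; adjusted p = 0.841, edgeR). Neither gene separated the groups. Pmaip1 encodes NOXA, which binds MCL1 and is, like PUMA, a known p53 target. It was the least abundant member, with normalized counts of 56.3, 95.2, 57.8 and 57.1 in Ndrg3ctrl and 48.9, 95.3, 47.3 and 72.8 in Ndrg3TKO. Replicate 2 was the highest library of both groups. The log2 fold change of 0.01 had the widest interval of the members, from -0.52 to 0.55 (adjusted p = 0.991, edgeR), and rested on 49 to 105 raw counts per library. At this depth a 1.46-fold rise or a fall to 0.696-fold lay at the limits of the interval.

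The 3 survival genes showed no change past the threshold. Bcl2, which sustains mature CD8SP thymocytes, had normalized counts of 13637, 13616, 13302 and 12781 in Ndrg3ctrl and 12888, 14539, 13245 and 14347 in Ndrg3TKO. Its log2 fold change was 0.05 (95% interval -0.07 to 0.16; adjusted p = 0.823, edgeR). Replicates 2 and 4 of Ndrg3TKO lay above every control and replicates 1 and 3 within their range. Mcl1, whose protein is short-lived and is bound by both BIM and NOXA, had 15513, 14486, 13919 and 14269 in Ndrg3ctrl and 13344, 14634, 13165 and 13624 in Ndrg3TKO. In this gene 3 of the 4 Ndrg3TKO libraries were below every control and replicate 2 was not, with a log2 fold change of -0.09 (interval -0.21 to 0.03; adjusted p = 0.616, edgeR). Bcl2l1, the gene of BCL-XL, which is most used by immature double-positive thymocytes, ranged from 912 to 1063 in Ndrg3ctrl and from 947 to 1081 in Ndrg3TKO. Its log2 fold change was 0.01 (interval -0.14 to 0.16; adjusted p = 0.968, edgeR).

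Of the effectors, Bax had normalized counts of 1018, 1142, 1064 and 1127 in Ndrg3ctrl and 986, 1204, 1213 and 1315 in Ndrg3TKO. In Ndrg3TKO, 3 libraries were above all controls and replicate 1 was below them, and the log2 fold change was 0.12 (95% interval -0.05 to 0.29; adjusted p = 0.64, edgeR). Bak1 ranged from 2073 to 2552 in Ndrg3ctrl and from 2149 to 2339 in Ndrg3TKO, with a log2 fold change of 0.01 (interval -0.13 to 0.15; adjusted p = 0.973, edgeR). For the 8 members other than Bbc3 and Pmaip1, the intervals together ran from -0.28 to 0.29 on the log2 scale, so changes beyond 0.825-fold or 1.22-fold lay outside all of them. Gene counts do not separate splice forms, such as the long and short forms of the Bcl2l1 or Mcl1 products.

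**Figure D3:**
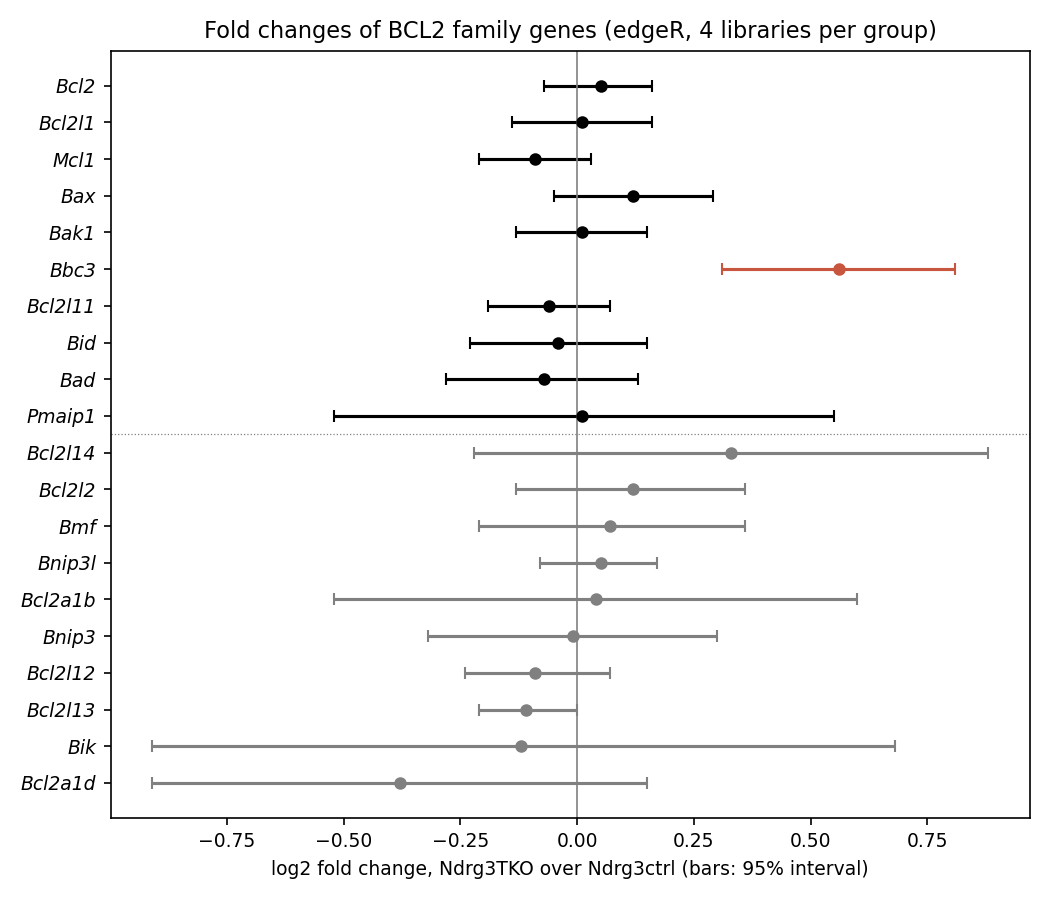
Log2 fold change of Ndrg3TKO over Ndrg3ctrl with its 95% interval for the 10 members (above the dotted line) and for the 10 tested of 15 other BCL2 family genes (below, in grey). Only the interval of Bbc3, from 0.31 to 0.81, belongs to a gene past the threshold, and among the members it is the only one that does not include 0.

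Levels of different genes were compared per length, as normalized CPM per kilobase of merged exons. Mcl1 was the most abundant member at 143 ± 7.79 (mean and SD of 8 libraries), above Bcl2 at 51.1 ± 2.39, Bak1 at 32.3 ± 2.21, Bax at 24.9 ± 2.4 and Bcl2l11 at 14.6 ± 0.982. Each of these neighbours in the order was separated in all 8 libraries. The next 4 followed closely: Bcl2l1 at 7.55 ± 0.484, Bbc3 at 6.26 ± 1.44, Bid at 5.42 ± 0.454 and Bad at 4.52 ± 0.363, and the libraries of each overlapped those of the next. Pmaip1 was last, at 0.839 ± 0.246, below all of them in every library. Bbc3 was therefore 1 of the less abundant members: its level was 5.07 ± 0.901 in Ndrg3ctrl and 7.45 ± 0.541 in Ndrg3TKO (SD, n = 4 per group), against 14.9 ± 1.3 and 14.3 ± 0.574 for Bcl2l11. With the longest transcript as the length, the places of Bak1 and Bax were exchanged and Bbc3 moved from place 7 to place 9. These places rest on means of all 8 libraries. In Ndrg3ctrl the mean of Bbc3 lay below that of Bid (5.07 against 5.49). In Ndrg3TKO it lay above that of Bid (7.45 against 5.34).

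**Figure D4:**
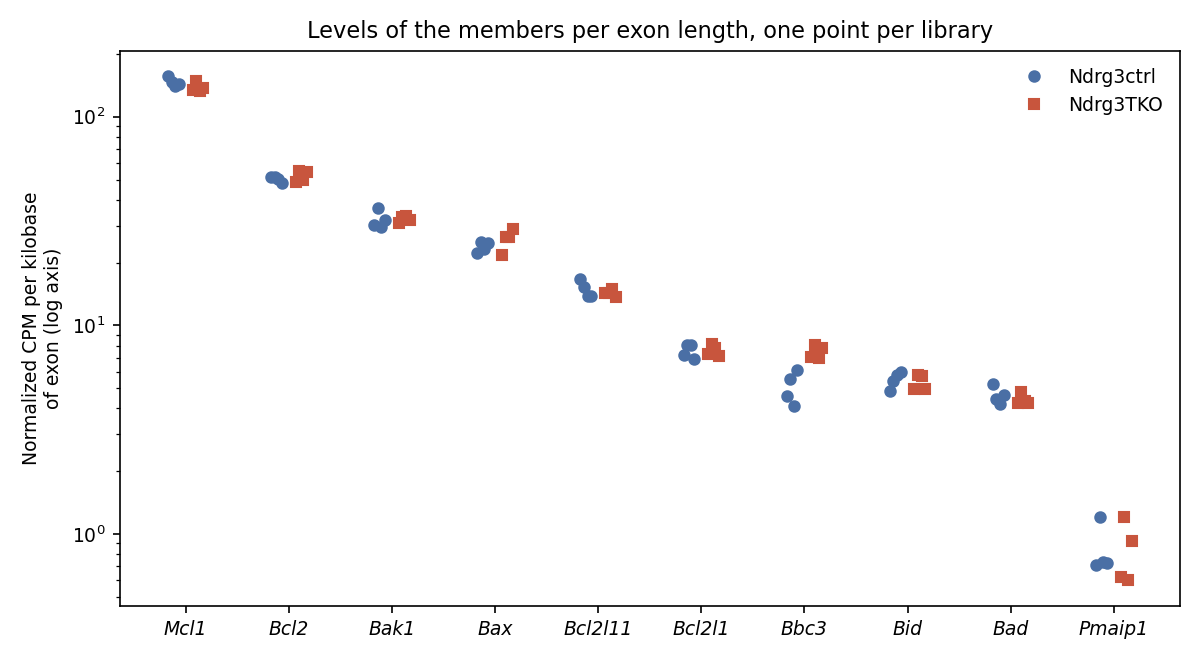
Normalized CPM per kilobase of exon (log axis) for the 10 members in order of their mean, with 1 point per library, circles for Ndrg3ctrl and squares for Ndrg3TKO. Mcl1 stands at 133 to 157 and Pmaip1 at 0.598 to 1.21, and the libraries of Bcl2l1, Bbc3, Bid and Bad overlap from one to the next.

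A set of 4 ratios of these length-scaled levels were computed for each library as a description, without a test. The sum of the 3 survival genes over the sum of the other 7 was 2.55, 2.2, 2.43 and 2.26 in Ndrg3ctrl and 2.28, 2.25, 2.06 and 2.16 in Ndrg3TKO. Its means of 2.36 ± 0.159 and 2.19 ± 0.102 (SD, n = 4 per group) came from overlapping groups, and were 3.58 and 3.49 from raw counts with no length scaling. The ratio of Bcl2 to Mcl1 was 0.328, 0.351, 0.357 and 0.334 in Ndrg3ctrl and 0.361, 0.371, 0.376 and 0.393 in Ndrg3TKO, and these groups did not overlap. Neither gene passed the threshold by itself. Of all tested genes taken singly, 7.04% did not overlap, in either direction, and the share of gene ratios that do so was not computed. The size of the Bcl2 to Mcl1 ratio depends on the length scaling: its means were 0.343 and 0.375 with it, and 0.918 and 1 from raw counts. Bcl2 over Bcl2l11 was 3.4 ± 0.219 and 3.64 ± 0.324, with overlap. Mcl1 over Pmaip1 was 184 ± 43 and 178 ± 49.8, also with overlap, and was lowest in replicate 2 of both groups (122 and 123).

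The spread between libraries of 1 group differed among the members. The coefficient of variation was lowest for Bcl2 in Ndrg3ctrl (2.99%) and highest for Pmaip1 in Ndrg3TKO (34.4%). For Bbc3 it was 17.8% in Ndrg3ctrl and 7.26% in Ndrg3TKO.

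Some members share their position with other genes, and whether reads were counted by strand is not given in the sources used here. Bid overlaps Bcl2l13 on the opposite strand, which had 435% of the counts of Bid, and Gm44260 on the same strand, with 39%. Bad overlaps Gpr137 on the opposite strand, with 92.3% of its counts, and Bak1 overlaps Ggnbp1, with 6.79%. None of Bcl2l13, Gm44260, Gpr137 and Ggnbp1 passed the threshold (adjusted p = 0.445, 0.403, 0.981 and 0.709, edgeR). Within Bcl2, the annotated Gm37053 had 3.95% of its counts. No annotated gene overlapped Bbc3, Bcl2l11, Mcl1, Bcl2l1, Bax or Pmaip1.

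Other genes of the family did not pass the threshold in either direction: 0 of the 10 tested of 15, with 1 at an unadjusted p under 0.05 in edgeR and 0 called by DESeq2. Of all tested genes, 10.9% had an unadjusted p under 0.05. Their median log2 fold change was 0.015. Bnip3l, a mitochondrial receptor for mitophagy, had normalized counts of 3751 ± 278 in Ndrg3ctrl and 3871 ± 129 in Ndrg3TKO (SD, n = 4 per group; adjusted p = 0.825, edgeR). Bcl2l13 had 2513 ± 118 and 2329.5 ± 45 (adjusted p = 0.445, edgeR). Bcl2a1d, a survival gene with near-identical copies whose reads may be divided between them, had a log2 fold change of -0.38 from about 40.5 counts (adjusted p = 0.626, edgeR). Bcl2a1a and Hrk had no count in any library.

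Downstream of the mitochondria, 21 of 21 genes of the mitochondrial pathway and caspases were tested, and Birc3 rose (0.793% of all tested genes rose). Birc3 encodes cIAP2, an inhibitor of apoptosis protein with ubiquitin ligase activity. Its normalized counts were 2435, 2359.8, 2449 and 2417 in Ndrg3ctrl and 2816, 2658, 2996 and 2818 in Ndrg3TKO, and the groups did not overlap (7.04% of all tested genes, in either direction). The log2 fold change was 0.22 ± 0.0492 (SE; adjusted p = 0.0435, edgeR). The call held in 1 of the 8 fits without 1 library, that without Ndrg3TKO replicate 2, and the adjusted p of the 8 ran from 0.0326 to 0.167. No gene of this list fell past the threshold, and its median was -0.049.

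Of the p53 pathway list, 15 of 18 genes were tested and 2 rose (0.793% of all tested genes), and none fell past the threshold. Bbc3 and Pmaip1 are p53 targets as well and were counted with the members. Phlda3, which encodes a p53-induced protein that restrains Akt, had normalized counts of 13.6, 27, 10.8 and 7.4 in Ndrg3ctrl and 48.9, 49, 50.2 and 72.8 in Ndrg3TKO. All Ndrg3TKO libraries were higher than the controls, and the log2 fold change was 1.97 ± 0.316 (SE; adjusted p = 0.00532, edgeR), at low counts. It passed in all 8 fits without 1 library, and within libraries with Y-linked counts it was 0.87 (adjusted p = 0.484, edgeR) against 2.50 within those without (adjusted p = 0.00149, edgeR). Zmat3, a p53-induced RNA-binding protein gene, had 1612, 1436, 1443 and 1329.6 in Ndrg3ctrl and 2056, 1802, 2032 and 1709 in Ndrg3TKO, again without overlap (7.04% of all tested genes, in either direction). Its log2 fold change was 0.38 ± 0.073 (SE; adjusted p = 0.0184, edgeR). It did not pass without Ndrg3ctrl replicate 3 (0.0763) or 4 (0.0713), nor without Ndrg3TKO replicate 1 (0.0805) or 3 (0.0746). The list's median was 0.034. Both genes at the head of this pathway, named after their values were seen, did not pass: Trp53, for p53 itself, with a log2 interval of -0.11 to 0.11, and Mdm2, which encodes the ligase that degrades p53, with -0.06 to 0.14 (adjusted p = 0.999 and 0.823, edgeR). Cdkn1a, the p21 gene, also named after its values were seen, was below the filter on low counts, at 4.47 ± 1.97 normalized counts in Ndrg3ctrl and 10.7 ± 2.66 in Ndrg3TKO (SD, n = 4 per group).

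**Figure D5:**
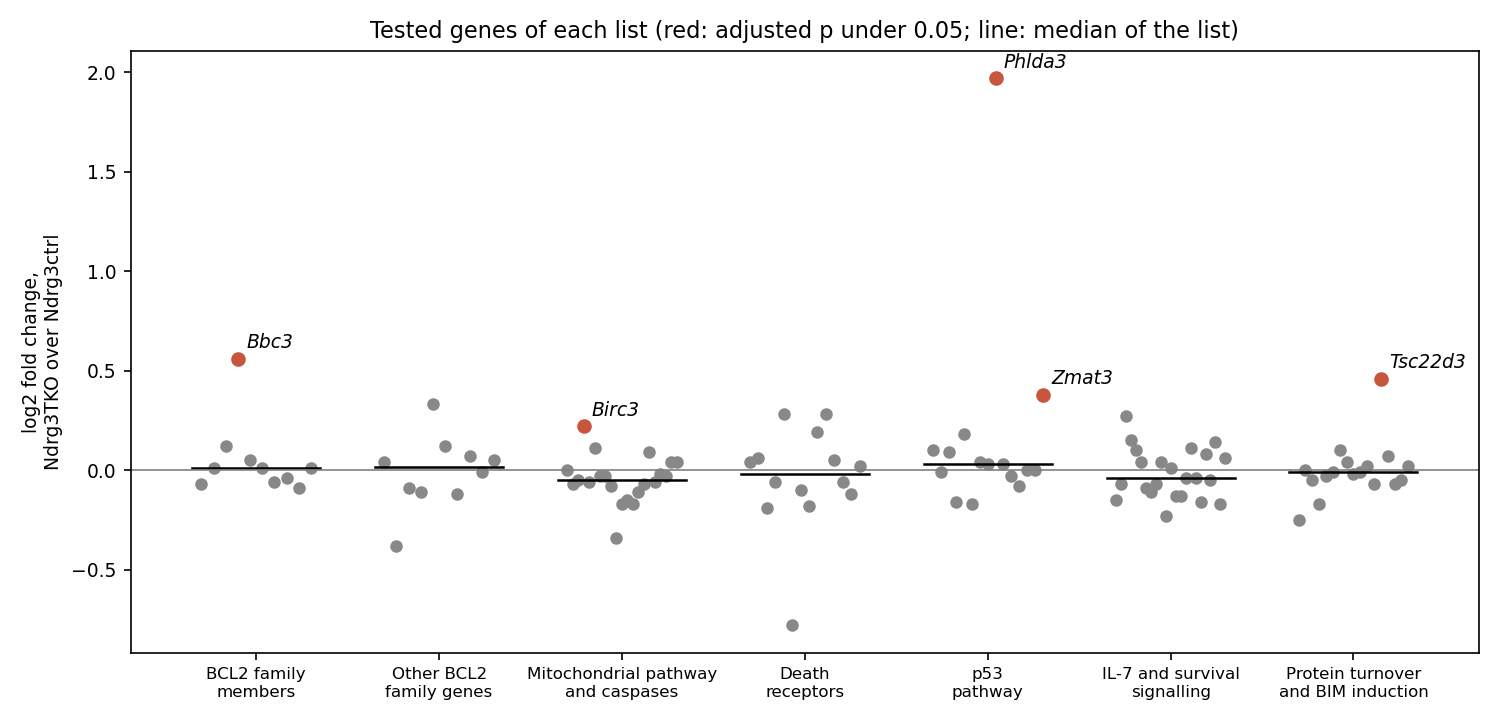
Log2 fold change of Ndrg3TKO over Ndrg3ctrl for each tested gene of the 7 lists, in alphabetical order within a list, with the list's median as a line. The 5 genes past the threshold, Bbc3, Birc3, Phlda3, Zmat3 and Tsc22d3, are red and named, and all 5 lie above 0.

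Death receptor genes had 0 calls among the 14 tested of 15, with 3 at an unadjusted p under 0.05 in edgeR (10.9% of all tested genes), and DESeq2 called 1 of them, Fas. The most abundant were Cflar, whose product c-FLIP blocks caspase-8, at 8675 ± 537 in Ndrg3ctrl and 9019 ± 355 in Ndrg3TKO, and the TNF receptor gene Tnfrsf1b at 6888 ± 623 and 6624 ± 549.5 (SD, n = 4 per group). The largest log2 fold change was -0.78 for Mlkl, from 20 counts (adjusted p = 0.48, edgeR). Fas, named after its values were seen, had a log2 fold change of 0.28 without overlap of the groups (adjusted p = 0.0811, edgeR), and it passed with the Y-linked covariate. The groups did not overlap for 7.04% of all tested genes, in either direction. With the replicate numbers as a block, Fas and Daxx of this list passed in edgeR.

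Interleukin-7 and survival signalling genes, which maintain Bcl2 in mature T cells, also had 0 calls among 23 tested, with 5 at an unadjusted p under 0.05 in edgeR (10.9% of all tested genes), of which 4 were lower, and 0 called by DESeq2. With the presence of Y-linked counts as a covariate, Myc and Stat5a of this list passed in edgeR. With the replicate numbers as a block, Cish, Foxo1, Myc and Stat5a passed in edgeR. The median was -0.044. Pik3cd and Jak1, the most abundant, had log2 fold changes of -0.04 and -0.07, and Cish, a feedback inhibitor of cytokine signalling, had the largest at 0.27 (adjusted p = 0.848, 0.753 and 0.53, edgeR).

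Among regulators of BCL2 family protein turnover and of BIM induction, 17 of 18 were tested and Tsc22d3 rose (0.793% of all tested genes rose). This gene encodes GILZ, induced by glucocorticoids and FOXO factors. Its normalized counts were 2164, 2135, 1917 and 1955 in Ndrg3ctrl and 2244, 3194, 2893 and 2887 in Ndrg3TKO. The lowest Ndrg3TKO library, replicate 1, was close to the highest control, and without it the adjusted p was 0.000572 against 0.0339 for all libraries (edgeR). The log2 fold change was 0.46 ± 0.0911 (SE), and in the other 7 fits without 1 library the adjusted p ran from 0.0516 to 0.133. With the replicate numbers as a block it was 0.45 and did not pass (adjusted p = 0.0948, edgeR). None of this list fell past the threshold, and its median was -0.013.

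The labelled cell type was checked with 17 markers of CD8SP thymocytes, which were all tested and summed to 313906 to 364543 normalized counts per library, B2m and Cd8a being the most abundant. None passed the threshold, 4 had an unadjusted p under 0.05 in edgeR (10.9% of all tested genes), and Cd8a was at 39539.7 ± 549 in Ndrg3ctrl and 39077 ± 967 in Ndrg3TKO (SD, n = 4 per group). CD4 cell markers summed to 100.3 to 195 per library, gamma delta T cell markers to 328 to 441 (mostly Trdc, with Trdv4 at 0), myeloid and dendritic markers to 149 to 194, and erythroid markers to at most 6.71, with Hba-a1, Hbb-bs and Hbb-bt at 0. Thymic stroma markers summed to 4292 to 5191, mostly Pecam1. None of these 5 lists had a gene past the threshold.

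The other 4 lists held genes that passed the threshold or had an unadjusted p under 0.05. Markers of NK and NKT cells summed to 7149, 8014, 6781 and 6997 in Ndrg3ctrl and 7199, 8785, 8869 and 7827 in Ndrg3TKO, mostly Nkg7, with Ncr1 at 0. Of 4 tested, Klrb1c rose by 2.62 and Eomes fell by 1.26 on the log2 scale (adjusted p = 0.00149 and 0.00017, edgeR). Across all tested genes, 1.15% passed in either direction. B cell markers summed to 7301 to 9018, nearly all Ighm. The defining gene Ms4a1 was at 0, while Cd79b had a log2 fold change of -0.43 (adjusted p = 0.0529, edgeR). Regulatory T cell markers summed to 2534, 2294, 2214 and 2182 in Ndrg3ctrl and 2349, 2051, 2352 and 2056 in Ndrg3TKO, mostly Ikzf4, and none was at 0. Of the 4, none passed the threshold and 3 had an unadjusted p under 0.05 (10.9% of all tested genes). The defining gene Foxp3 had 99.8 ± 21.1 normalized counts in Ndrg3ctrl and 144 ± 35 in Ndrg3TKO (SD, n = 4 per group), Il2ra had 132 ± 46.3 and 202 ± 54.4, and Ikzf4 had 1876 ± 123 and 1669.6 ± 89.3. Their log2 fold changes were 0.53, 0.62 and -0.17 (adjusted p = 0.293, 0.422 and 0.283, edgeR), and all 3 were named after their values were seen. Immature double-positive markers summed to 1613, 1399, 1325 and 1286 in Ndrg3ctrl and 1774, 1471, 1659 and 1661 in Ndrg3TKO, with Cd24a the most abundant, Cplx1 at 0 and Dntt at 0.45 (log2; adjusted p = 0.0783, edgeR). The part of these cells in the rise of Bbc3 was not tested.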

How the data were processed

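RNA was sequenced from sorted CD8SP thymocytes of 4 Ndrg3ctrl and 4 Ndrg3TKO biological replicates, with ribosomal RNA depletion and a stranded kit. The authors used cutadapt for trimming, STAR for alignment to GRCm38.p4 (GENCODE M9) and featureCounts in snakePipes for counting reads per gene, and deposited raw counts for 47937 genes. The strand setting and the treatment of reads with several matches are not given in the sources used here. Gene names, positions and lengths were taken from GENCODE M21 (GRCm38), which matched 98.7% of the genes by identifier.

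Genes were filtered with filterByExpr, scaled by TMM and tested with edgeR 4.0.16 (glmQLFit robust, glmQLFTest; R 4.3.3, limma 3.58.1), with Benjamini-Hochberg adjustment over 14633 genes; an adjusted p under 0.05 was a call. The standard error is the log2 fold change, without its sign, over the square root of F. A count of 3 in a library equals 0.0918 to 0.142 CPM; such floors cover counting error only. Alternatives were DESeq2 1.42.0, other scalings and filters, the likelihood ratio test, a replicate block, Y-linked counts and leaving out each library. The fit was tested on simulated counts. No replicate of a group duplicated another (chi-square over genes).

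The members and lists were chosen with earlier results of these data known. Named singly were all members, Ndrg3, every called gene of the other pathway lists and, for lists without one, the 2 most abundant tested genes and that with the largest change; further genes are marked as named after their values were seen. Marker lists were those of CD8SP, CD4SP, double-positive, regulatory T, gamma delta T, NK and NKT, B, myeloid and dendritic, stromal and erythroid cells and Y-linked genes. Results of some list genes are not reported here.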

Additional observations from a re-analysis of the deposited data

Results flagged for a closer look

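In 42 groups of 4 values (members, other named genes, ratios, totals and Y-linked counts), 4 held a library far from the other 3 by Dixon's criterion, where chance gives about 2.1 (1 in 20). Pmaip1 was at 95.2 normalized counts in Ndrg3ctrl replicate 2, against 56.3 to 57.8 in the other controls. Bad was at 356 in Ndrg3TKO replicate 2, against 314 to 321. Phlda3 was at 72.8 in Ndrg3TKO replicate 4, against 48.9 to 50.2. Y-linked counts were at 340.5 CPM in Ndrg3ctrl replicate 2, against at most 0.0752 in the other controls.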

How the results depend on the processing

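Bbc3 was higher in Ndrg3TKO under all 18 alternatives, at a log2 fold change of 0.44 to 0.66, and passed in the 8 that kept all libraries. It did not pass within libraries without (0.59) or with (0.44) Y-linked counts, and leaving out each library gave 0.47 to 0.66; these fits had fewer samples. The number of members called was accordingly 1, and 0 within libraries without or with Y-linked counts, and 0 to 1 without 1 library. None of the other 9 members passed under any of their 162 alternative fits, but small differences changed sign in 24 of them. For Bcl2l1 the value became -0.02 with the Y-linked covariate, -0.03 and -0.01 within libraries without and with Y-linked counts, and -0.03 to 0.04 without 1 library. For Bak1 it became -0.03 with the covariate, -0.14 within libraries with Y-linked counts and -0.03 to 0.08 without 1 library. For Pmaip1 it became -0.09 with the covariate, -0.41 within libraries with Y-linked counts and -0.22 to 0.21 without 1 library. Within libraries with Y-linked counts it was 0.04 for Bad and 0.09 for Bid, and leaving out 1 library gave -0.09 to 0.00048 for Bcl2l11 and -0.10 to 0.0011 for Bid. The cause was not tested.

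All genes called numbered 168, against 306 with DESeq2, 274 with no filter on low counts, 285 with the likelihood ratio test, 437 with the Y-linked covariate, 92 and 40 within libraries without and with Y-linked counts, and 90 to 158 without 1 library. Other list genes called numbered 4, against 8 with the covariate (Fas, Myc and Stat5a among those added), 1 and 0 within libraries without and with Y-linked counts, and 1 to 4 without 1 library; Phlda3 was among them in all of these but that with Y-linked counts alone, and had no value with at least 10 counts in every library. The largest shift of the median of all genes by another scaling was 0.009 on the log2 scale. With the longest transcript as the length, 5 members kept their place in the order of levels. The mean survival ratio was 3.58 in Ndrg3ctrl and 3.49 in Ndrg3TKO from raw counts with no length scaling, and leaving out 1 library gave 2.3 to 2.42 and 2.16 to 2.23.

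The groups share the replicate numbers 1 to 4. Deviations from the group means correlated at 0.181, 0.415, -0.055 and 0.301 between same-numbered libraries, and not every library correlated best with its own number, so the numbers were not taken as pairs. With the replicate block, 800 genes, 11 list genes and 1 member (Bbc3, 0.56) were called; the list genes included Cish, Foxo1, Myc and Stat5a of interleukin-7 and survival signalling, Fas and Daxx of the death receptor list and Atf4. Pmaip1 changed sign to -0.02, and Tsc22d3 did not pass (adjusted p = 0.0948, edgeR). Pmaip1, with 49 to 105 raw counts per library, had a standard error of 0.25 on the log2 scale, and 0.175 with the block.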

Other observations

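Among the 17 markers of CD8SP thymocytes, Klf2, S1pr1 and Ccr7, genes of maturation, thymic exit and homing, had an unadjusted p under 0.05 and negative log2 fold changes in Ndrg3TKO cells, and did not pass the threshold. Klf2 had 9615 ± 853 normalized counts in Ndrg3ctrl and 8048 ± 647 in Ndrg3TKO, and Ccr7 had 12595 ± 1317 and 10498 ± 699.6 (SD, n = 4 per group). Their log2 fold changes were -0.26 each, with adjusted p = 0.13 and 0.135, and that of S1pr1 was -0.19, with adjusted p = 0.203 (edgeR). The libraries of the groups overlapped for all 3. They were picked after their values were seen.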
